A study of Homo sapiens with 18 samples.

Results

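Interferon lambda 1 (IFNL1) and the 6 genes that encode the receptor chains of the 3 interferon types were followed through an RNA-seq experiment on breast cancer cells given a PARPi. The 7 genes were picked by symbol out of 35044 genes in the count table, and each passed the filter on low counts, IFNL1 and IFNLR1 through the HCC1937-OE-BRCA1 libraries alone and IL10RB through the HCC1937-EV libraries alone. HCC1937 is a basal-like breast cancer cell line with a mutated BRCA1. The study describes HCC1937-EV as this line with an empty vector and HCC1937-OE-BRCA1 as its partner with added wild-type BRCA1. Both were sequenced at 0 h without drug (untreated) and at 12 h and at 24 h of olaparib (10 µmol/L), an inhibitor of the DNA repair enzyme PARP, in 3 libraries per condition and 18 libraries in all. The labels give the genotype as WT for the former and BRCA1 overexpression for the latter, and they list olaparib for the 0 h libraries too. EV and OE stand below for the libraries labelled with these names. Whether either line is 1 clone, which promoter drives the added BRCA1 and whether the 3 libraries of a condition came from separate cultures are not given in the sources used here, so p-values measure the spread between libraries, which may be technical. Total counts lay between 15081973 and 17571922 per library, and 1 count was worth 0.059 to 0.0679 CPM (counts scaled to library size, with sizes adjusted by TMM).

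Interferons are secreted proteins that cells release when they sense foreign or misplaced nucleic acid. Type I interferons bind a pair of chains encoded by IFNAR1 and IFNAR2, which most cell types carry. Type III interferons, the lambdas, bind IFNLR1 together with IL10RB; IFNLR1 is known to be largely restricted to epithelial cells, while IL10RB also serves interleukin 10 and its relatives. Interferon gamma, the type II interferon, binds IFNGR1 and IFNGR2. Behind the type I and type III receptors, the kinases JAK1 and TYK2 phosphorylate STAT proteins, which join IRF9 and switch on interferon-stimulated genes, whereas interferon gamma works through JAK1 and JAK2.

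The EV and OE libraries did not look like 1 cell line with and without a transgene, and this bears on every comparison between them. EPCAM, an epithelial adhesion protein, had 310.1 ± 50.8 CPM (SD, n = 3, as for every ± below) in untreated OE and at most 1 count in an EV library. The basal keratin KRT5 had 1549.6 ± 244 CPM in untreated OE and at most 2 counts in an EV library. The epithelial cadherin CDH1 stood at 433 ± 42.9 CPM in untreated OE against 0.659 ± 0.215 CPM in untreated EV. Of 5 tested mesenchymal markers, 3 were lower and 2 higher in untreated OE, so that this list did not go 1 way. The filament VIM had 306 ± 25.3 CPM in untreated EV and 1.05 ± 0.273 CPM in untreated OE, and the matrix protein FN1, named after its values were seen, had 1.42 ± 0.429 and 35.7 ± 8.65 CPM. The log2 CPM of libraries of 1 line correlated at 0.973 to 0.989 and of different lines at 0.698 to 0.725 across 18335 genes. EV did hold members of both lists, with the epithelial keratin KRT8 at 1886 ± 67.8 CPM and the growth factor receptor EGFR at 194 ± 8.72 CPM untreated, against 3799 ± 573 and 296 ± 53.8 CPM in OE. The libraries labelled HCC1937-EV thus went against their label on EPCAM, CDH1 and KRT5.

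The total RNA count of BRCA1, the gene the design turns on, was not set apart by the labels in the untreated libraries. It had 118 ± 7.70 CPM in untreated EV and 138 ± 24.0 CPM in untreated OE, a log2 difference of 0.24 (SE 0.11, adjusted p = 0.0654, from edgeR's quasi-likelihood test, adjusted by Benjamini-Hochberg, as throughout, and called under 0.05). It was higher in OE at 24 h, by 0.77 on the log2 scale (SE 0.11, adjusted p = 3.17e-06), and the difference of 0.16 at 12 h (SE 0.11, adjusted p = 0.197) was not called. At the protein level, the paper reports a truncated BRCA1 in HCC1937-EV, and the truncated and the added wild-type form in HCC1937-OE-BRCA1. Counts per gene cannot separate the added transcript from the line's own, so they do not show whether wild-type BRCA1 was made. The effect of BRCA1 and the other differences between the 2 lines cannot be told apart, so the comparisons with olaparib within a line come first.

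**Figure D1:**
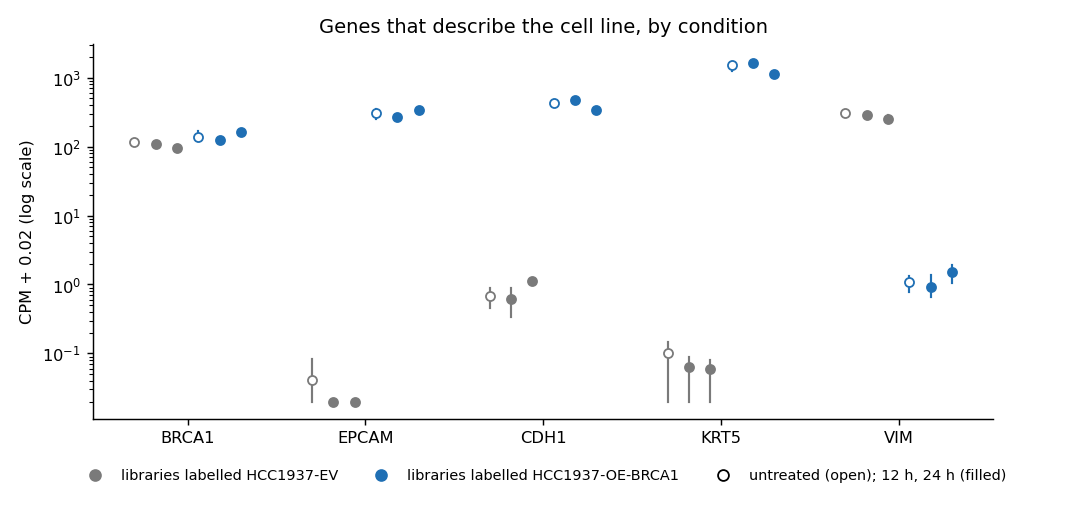
CPM of genes that describe the cell line, on a log axis after adding 0.02 CPM, in the 6 conditions; points are means of 3 libraries and bars run from the lowest to the highest library. EPCAM and KRT5 sit at or near 0 in EV, VIM is far lower in OE, and BRCA1 lies at similar levels in both when untreated.

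IFNL1 was the member that rose after olaparib, in OE, and it had no count in EV. IFNL1 (ENSG00000182393.3) lies on the plus strand of chromosome 19 (GRCh38, chr19:39296325-39298673, GENCODE 29), beside its paralogs IFNL2 (chr19:39268514-39270092) and IFNL3 (chr19:39243553-39245129). No 50-base word of its transcripts occurs in another gene, so its reads can be told apart from theirs. IFNL2 and IFNL3 share 31.98% and 31.39% of their 50-base words with other genes, mainly each other, so the split of counts between these 2 is uncertain. Because the 3 genes rose in OE at 24 h, the stretch from base 250 to base 131 before their RefSeq start sites (GRCh38.p14) is shown 5′ to 3′ on the gene's strand, with matches to the interferon-stimulated response element in capitals. The stretches are chr19:39296157-39296276 (plus strand) for IFNL1, chr19:39268146-39268265 (plus strand) for IFNL2 and chr19:39245381-39245500 (minus strand) for 1 of the start sites of IFNL3.
IFNL1: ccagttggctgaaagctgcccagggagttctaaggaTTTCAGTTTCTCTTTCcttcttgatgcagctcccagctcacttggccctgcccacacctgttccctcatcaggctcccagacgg
IFNL2: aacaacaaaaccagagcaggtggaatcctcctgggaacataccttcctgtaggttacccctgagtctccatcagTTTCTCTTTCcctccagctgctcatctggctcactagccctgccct
IFNL3: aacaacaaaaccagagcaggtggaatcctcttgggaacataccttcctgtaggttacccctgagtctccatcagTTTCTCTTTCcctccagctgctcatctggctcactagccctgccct

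The element was searched on both strands as its core, GAAA followed by NN and again by GAAA, which 3.574% of 35116 RefSeq promoter windows of 300 bases hold. All matches here lay on the opposite strand. The IFNL1 window held 2 overlapping matches, with first bases at -214 and -208 from the start site, and the windows shown for IFNL2 and IFNL3 held 1 each, at -176, while a second RefSeq start site of IFNL3 has a window with no match to any motif searched. The shorter site AANNGAAA, to which interferon regulatory factors bind and which lies within every match to the core, is found in 22.83% of the windows. IFNL1 had a further match to it at -74, and IFNL2 and IFNL3 had one at -70. The gamma-activated site TTCNNNGAA, found in 7.657% of the windows, matched once for IFNLR1, at -238, and once for IL10RB, at 12. The windows of IFNAR1, IFNGR1 and IFNGR2 held no match to any of these letters. A match describes the letters of a window and not the binding of a factor.

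IFNL1 counts in the untreated OE libraries were 26, 33 and 38, or 1.60, 2.03 and 2.39 CPM. After 12 h of olaparib they were 190, 246 and 184, or 11.9, 14.9 and 11.7 CPM. After 24 h they were 275, 231 and 214, or 16.9, 14.2 and 13.1 CPM. Each treated library stood above each untreated one, and the libraries of 12 h and 24 h overlapped. IFNL1 rose by 2.67 on the log2 scale at 12 h (SE 0.21, adjusted p = 2.58e-06) and by 2.87 at 24 h (SE 0.21, adjusted p = 8.17e-07), and these 2 comparisons share the untreated libraries. The difference of 24 h from 12 h was 0.20 (SE 0.18, adjusted p = 0.595, 95% interval -0.19 to 0.59). In EV, IFNL1 had 0 counts in each of the 9 libraries, which allows up to 3 counts over the 3 libraries of a condition, or 0.0619 CPM untreated, 0.0647 CPM at 12 h and 0.0593 CPM at 24 h, for counting error only. Against these limits IFNL1 was at least 32.4-fold higher in OE untreated, at least 199-fold higher at 12 h and at least 248-fold higher at 24 h. With counts of 0, a change in EV and a difference of the changes between the lines could not be estimated.

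IFNL2, IFNL3 and IFNB1 had fewer counts than IFNL1 in each OE library. IFNL3 had 9, 6 and 11 counts in untreated OE, 36, 32 and 32 at 12 h and 27, 28 and 28 at 24 h. It rose by 1.93 on the log2 scale at 12 h (SE 0.37, adjusted p = 0.009) and by 1.64 at 24 h (SE 0.38, adjusted p = 0.0149). IFNL2 had 9, 1 and 4 counts untreated, 17, 18 and 19 at 12 h and 21, 25 and 31 at 24 h. Every treated library of both paralogs lay above the untreated ones. For IFNL2 the log2 change of 1.93 at 12 h (SE 0.55, adjusted p = 0.1) was not called, and it rose by 2.41 at 24 h (SE 0.53, adjusted p = 0.0122). IFNB1, the type I interferon beta, had 2, 2 and 4 counts untreated, 11, 10 and 10 at 12 h and 18, 10 and 10 at 24 h. Its untreated libraries were again the lowest, and it rose by 2.18 at 24 h (SE 0.56, adjusted p = 0.0286), while 1.91 at 12 h (SE 0.58, adjusted p = 0.129) was not called. IFNL2, IFNL3 and IFNB1 had no count in EV. In a check chosen after the data were seen, the calls of these 3 genes rested on single libraries, whereas that of IFNL1 was kept without each library in turn. At 24 h IFNB1 lost its call without any 1 of the 6 libraries compared (adjusted p from 0.0503 to 0.126), with no filter on low counts and with the compared conditions alone, IFNL2 without the second or the third untreated library or the third of 24 h (0.0534 to 0.0637), and IFNL3 without the second untreated library or the second or the third of 24 h (0.0529 to 0.0835), all by edgeR. At 12 h IFNL3 lost its call without the second untreated library (edgeR, adjusted p = 0.058).

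IFNE, a type I interferon known from the epithelium of the reproductive tract, was the 1 tested ligand of the 5 with a count in EV, at 2.91 ± 0.972 CPM in untreated OE and 1.24 ± 0.698 CPM in untreated EV. edgeR called it after olaparib in neither line, with log2 changes at 24 h of 0.48 in OE (SE 0.33, adjusted p = 0.4) and -1.37 in EV (SE 0.47, adjusted p = 0.0548). The change in EV was called by DESeq2 (adjusted p = 0.0262), and by edgeR with no filter on low counts (adjusted p = 0.0149) and without the second untreated library (-1.77, adjusted p = 0.0188). In edgeR the difference of the changes in OE and EV, 1.85, was called (SE 0.57, adjusted p = 0.0275). That call was lost when any 1 of 8 of the 12 libraries was left out. IFNL4 had at most 10 counts in a library and IFNA1 at most 9 in OE and 2 in EV, and both stayed below the filter, as did IFNA8, IFNK and IFNW1. Of the 22 listed ligands, 10 were in the table and 5 were tested, of which 2 rose at 12 h, where 1.7% of all genes were called higher, and 4 at 24 h, where 4.71% were, in OE. IFNL2, IFNL3 and IFNB1 passed the filter only with the treated OE libraries, where they were high, so these counts are no support for a rise of the list. DESeq2 called 2 at 12 h (IFNL1 and IFNL3) and 1 at 24 h (IFNL1), and at 24 h it gave no adjusted p for IFNL2, IFNL3 and IFNB1. The other 12, IFNG among them, are not analysed here. Summed over the 3 untreated OE libraries, IFNL1 had 97 counts, IFNE 141, IFNL3 26, IFNL2 14 and IFNB1 8. At 24 h IFNL1 had 720 counts, 3.62 times those of IFNE, 8.67 times those of IFNL3, 9.35 times those of IFNL2 and 18.9 times those of IFNB1. Per kilobase of exon, the level of IFNL1 in OE was 2.34 ± 0.463 CPM per kb untreated, 15 ± 2.07 at 12 h and 17.2 ± 2.27 at 24 h.

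**Figure D2:**
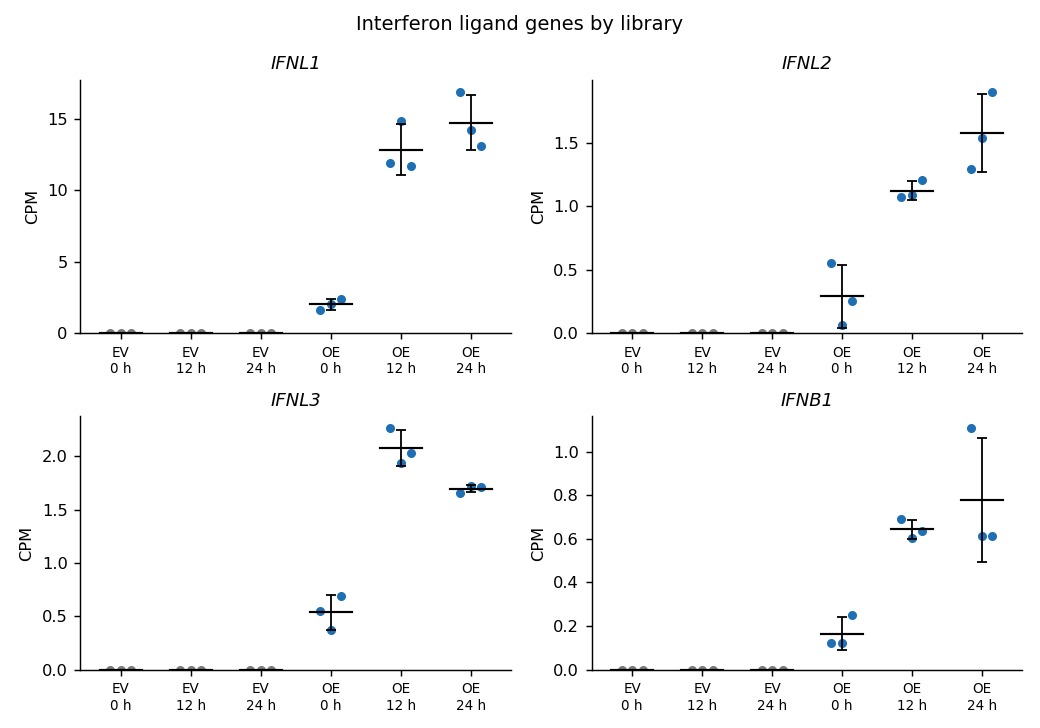
CPM of IFNL1, IFNL2, IFNL3 and IFNB1 in each of the 18 libraries by condition; points are libraries and bars are the mean and SD of 3. The 4 genes lie at 0 in EV, and in OE their treated libraries lie above the untreated ones.

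No receptor gene was called after olaparib in either line. Of the 7 members, 1 was called in OE at 12 h (IFNL1), where 2.31% of the 18335 genes tested were called, and 1 at 24 h (IFNL1), where 8.26% were. At 24 h against 12 h in OE, 0 of 7 were called beside 1.65% of genes, with 3 members at an unadjusted p under 0.05 and 1 called by DESeq2. In EV, where IFNL1 and IFNLR1 had no or few counts and could not be called, 0 of the other 5 were called at 12 h beside 0.0436% of genes, at 24 h beside 13.7% and at 24 h against 12 h beside 0.18%, with 0 at an unadjusted p under 0.05 and 0 called by DESeq2 in each. Over the 6 receptor genes the median log2 change in OE was -0.05 at 12 h and -0.09 at 24 h, beside 0.0037 and 0.024 over all genes tested. A missed threshold does not show that a level stayed the same, and the intervals below give the size of change that remained possible.

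IFNLR1 (ENSG00000185436.12, chr1:24154157-24187959, minus strand) encodes the chain that is specific to interferon lambda. It had 9.54, 8.99 and 9.95 CPM in untreated OE, 11.8, 11.6 and 14.9 at 12 h and 10.01, 8.54 and 10.1 at 24 h, from 139 to 234 counts in a library. The 12 h libraries lay above the untreated ones, and those of 24 h overlapped with them. The log2 change of 0.43 at 12 h (SE 0.19, adjusted p = 0.384, 95% interval 0.02 to 0.84) and of 0.01 at 24 h (SE 0.19, 95% interval -0.41 to 0.42) were not called. In EV it had 0 counts in 8 libraries and 2 counts in 1 library of 12 h. It was at least 153-fold higher in OE untreated and at least 161-fold higher at 24 h, and at 12 h the ratio of OE to EV was 295 with a 95% counting interval of 81.4 to 2440. IFNL1 and the chain specific to its receptor were therefore both counted in every OE library and at or near 0 in EV.

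IL10RB (ENSG00000243646.10, chr21:33266358-33310187, plus strand), the other chain of the lambda receptor, had between 4 and 17 counts in a library. It stood at 0.517 ± 0.250 CPM in untreated OE, 0.477 ± 0.142 at 12 h and 0.409 ± 0.188 at 24 h. In EV it stood at 0.702 ± 0.353, 0.641 ± 0.281 and 0.750 ± 0.234 CPM, and the lines overlapped. The 95% interval of its log2 change in OE at 24 h ran from -1.54 to 0.88. Of its exonic bases 38.08% are also exonic in the readthrough gene IFNAR2-IL10RB, and 83.25% of those of IFNAR2 are also exonic in that gene or in the antisense IL10RB-DT. How reads in shared exons were counted is not given in the sources used here. IFNAR2-IL10RB itself had at most 1 count in a library and IL10RB-DT at most 7, so the levels of IL10RB and IFNAR2 are uncertain.

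IFNAR1 (ENSG00000142166.13, chr21:33324477-33359862, plus strand), the type I receptor chain that binds TYK2, was well counted in every library. In OE it had 56.6, 53.0 and 39.7 CPM untreated, 44.8, 49.4 and 50.4 at 12 h and 57.4, 56.6 and 58.4 at 24 h. In EV it had 59.4, 59.3 and 57.1 CPM untreated, 67.8, 57.4 and 49.2 at 12 h and 58.0, 51.8 and 56.0 at 24 h. The third untreated OE library was the lowest of the 18. The log2 change in OE was -0.05 at 12 h (95% interval -0.32 to 0.22) and 0.21 at 24 h (95% interval -0.06 to 0.48, adjusted p = 0.328), and at 24 h in EV it was -0.09 (95% interval -0.35 to 0.18). IFNAR2 (ENSG00000159110.21, chr21:33229901-33265675, plus strand), its high-affinity partner, had between 14 and 45 counts in a library. In OE it had 23, 22 and 16 counts untreated, 45, 21 and 34 at 12 h and 14, 18 and 22 at 24 h, which overlapped. Its log2 change of 0.72 at 12 h (SE 0.30, adjusted p = 0.313) and -0.19 at 24 h (SE 0.32, adjusted p = 0.784) were not called.

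IFNGR1 (ENSG00000027697.15, chr6:137197484-137219449, minus strand) encodes the chain that binds interferon gamma. In OE it had 62.9, 61.7 and 56.7 CPM untreated, 55.9, 53.3 and 54.6 at 12 h and 66.7, 72.6 and 72.8 at 24 h. In EV it had 26.9, 22.4 and 25 CPM untreated, 26.4, 25.9 and 24.0 at 12 h and 24.9, 22.8 and 21.4 at 24 h. In OE the 3 conditions did not overlap, with 12 h lowest and 24 h highest, and in EV they overlapped. The log2 change in OE was -0.15 at 12 h (SE 0.10, adjusted p = 0.629), 0.23 at 24 h (SE 0.10, adjusted p = 0.152) and 0.37 at 24 h against 12 h (SE 0.10, adjusted p = 0.0538). The last of these missed the threshold, and it passed under 4 alternatives, DESeq2's Wald test among them.

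IFNGR2 (ENSG00000159128.15, chr21:33402896-33479348, plus strand), the signal-transducing chain, spread widely within conditions. In EV it had 24.5, 23.0 and 12.2 CPM untreated, 11.8, 21 and 12.8 at 12 h and 18.7, 14.6 and 19.8 at 24 h. In OE it had 12.8, 12.3 and 10.4 CPM untreated, 12.5, 11.1 and 10.4 at 12 h and 11.1, 6.82 and 12.4 at 24 h. The third untreated EV library and the second OE library of 24 h were low, and the second EV library of 12 h was high, beside the others of their condition. The log2 change at 24 h was -0.22 in OE (95% interval -0.78 to 0.33) and -0.17 in EV (95% interval -0.70 to 0.35), and neither was called.

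**Figure D3:**
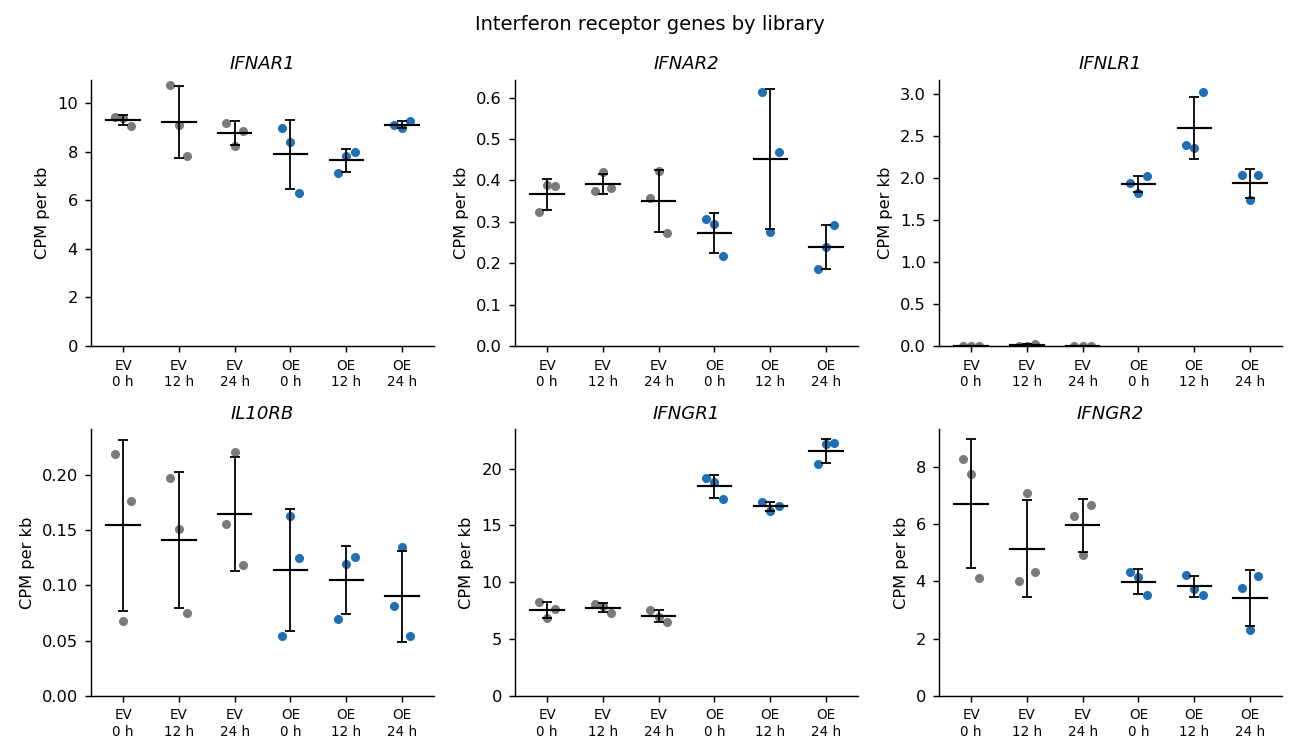
CPM per kb of exon of the 6 receptor genes in each of the 18 libraries by condition; points are libraries and bars are the mean and SD of 3. IFNLR1 is at or near 0 in EV, each OE library of IFNGR1 stands above each EV library, and the 9 libraries of OE and the 9 of EV overlap for the other 4 genes.

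**Figure D4:**
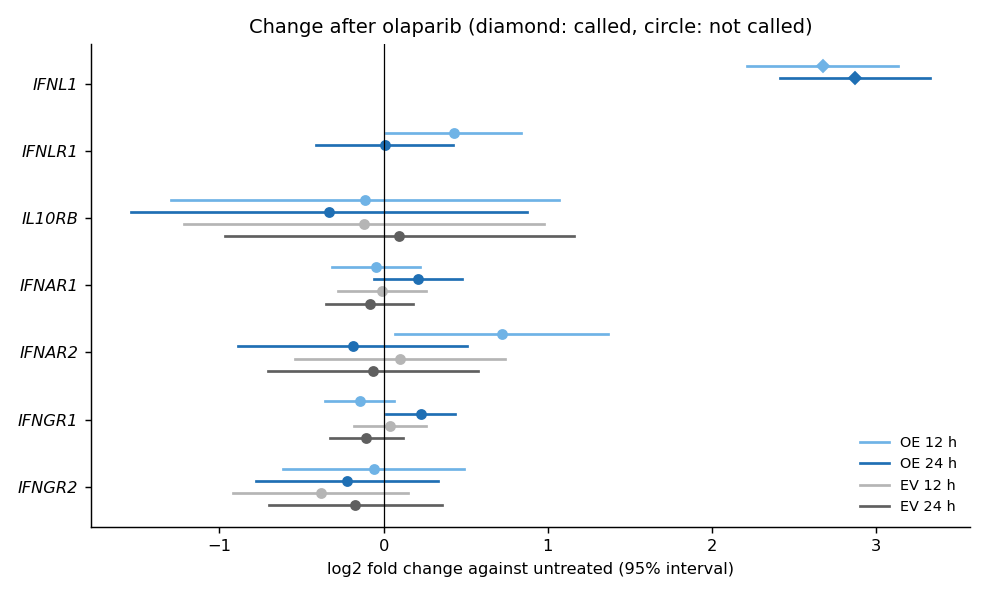
Log2 fold change against untreated, with its 95% interval, for the 7 members after 12 h and 24 h of olaparib in OE and EV; diamonds mark called changes. IFNL1 stands at 2.67 and 2.87 in OE and no receptor gene is called; IFNL1 and IFNLR1 are not drawn for EV, where they had 0 to 2 counts.

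Per kilobase of exon, the receptor genes in untreated OE ranked as IFNGR1 at 18.4 ± 1.01 CPM per kb, IFNAR1 at 7.90 ± 1.41, IFNGR2 at 3.99 ± 0.428, IFNLR1 at 1.93 ± 0.0974, IFNAR2 at 0.273 ± 0.0478 and IL10RB at 0.114 ± 0.0550. Libraries of neighbours in this order did not overlap, and the order was the same at 12 h and 24 h and with the length of the longest transcript in place of all exons. In untreated EV the order was IFNAR1 at 9.31 ± 0.209 CPM per kb, IFNGR1 at 7.55 ± 0.693, IFNGR2 at 6.72 ± 2.26, IFNAR2 at 0.366 ± 0.0375 and IL10RB at 0.154 ± 0.0777, with IFNLR1 at 0 counts. There IFNGR1 and IFNGR2 overlapped, and IFNGR1 moved ahead of IFNAR1 with the length of the longest transcript. The low places of IFNAR2 and IL10RB in both lines stand under the doubt about shared exons given above.

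Between the lines, 4 of 7 members were called untreated beside 72.7% of all genes, 3 of 7 at 12 h beside 72.9% and 4 of 7 at 24 h beside 73.9%, so these shares say nothing particular to the members. IFNL1 and IFNLR1 had to differ, since they passed the filter through OE alone. IFNGR1 was higher in OE by 1.29 on the log2 scale untreated (SE 0.10, adjusted p = 2.18e-10), by 1.10 at 12 h (SE 0.10, adjusted p = 2.63e-09) and by 1.62 at 24 h (SE 0.10, adjusted p = 5.18e-12). Each of its OE libraries stood above each EV library. IFNGR2 was lower in OE, with a log2 difference of -0.75 untreated (SE 0.25, adjusted p = 0.01) and -0.80 at 24 h (SE 0.25, adjusted p = 0.00684), while -0.43 at 12 h (SE 0.25, adjusted p = 0.131) was not called. Untreated, the lines overlapped, and the call was lost without the first EV library, at 24.5 CPM. At 24 h they did not overlap, and the call was lost without the second OE library, at 6.82 CPM. TMEM50B, whose exons overlap 12.84% of those of IFNGR2 on the opposite strand, was called lower in OE at each time, 12 h included. Its log2 difference was -0.70 untreated (SE 0.18, adjusted p = 0.0019), -0.74 at 12 h (SE 0.18, adjusted p = 0.00107) and -1.02 at 24 h (SE 0.18, adjusted p = 3.98e-05). The part of TMEM50B in the counts of IFNGR2 was not tested. IFNAR1, IFNAR2 and IL10RB were not called between the lines at any time.

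The test of the difference between the lines in their olaparib change could not be read for IFNL1 and IFNLR1, which had no or few counts in EV. It called 0 of the other 5 members at 12 h beside 0.518% of genes, with 0 at an unadjusted p under 0.05 and 0 called by DESeq2, and 0 of these 5 at 24 h beside 19.4%, with 1 and 1. The one at 24 h was IFNGR1, whose change was 0.33 more on the log2 scale in OE than in EV (SE 0.14, adjusted p = 0.0992).

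Behind the receptors, STAT2 and JAK2 rose in OE and 4 other genes that carry the signal were not called. Of the 7 genes listed, 2 were called in OE at 12 h beside 2.31% of all genes, and 3 at 24 h beside 8.26%. Not all 7 are reported here. STAT2, used by type I and type III signals, had 66.7 ± 3.45 CPM untreated, 168 ± 1.96 at 12 h and 162 ± 7.26 at 24 h. It rose by 1.33 (SE 0.08, adjusted p = 2.75e-09) and 1.28 (SE 0.08, adjusted p = 2.77e-09) on the log2 scale. JAK2, a kinase of the gamma receptor, rose at 24 h from 8.0 ± 2.28 to 14.6 ± 0.959 CPM, by 0.87 (SE 0.21, adjusted p = 0.0126), a call lost without the second untreated library (edgeR, adjusted p = 0.0873) or the third of 24 h (0.0543). JAK1, TYK2, STAT3 and IRF9 were not called in OE, and IRF9, at 1.07 ± 0.357 CPM untreated, shares 48.44% of its exonic bases with another gene, so its level is uncertain.

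In EV, TYK2 rose and JAK1 fell at 24 h, the 2 called of the 7 listed genes, beside 13.7% of all genes called. TYK2 went from 126 ± 6.46 to 170.4 ± 13.3 CPM, a rise of 0.43 on the log2 scale (SE 0.11, adjusted p = 0.018), and JAK1 from 618 ± 22.1 to 488 ± 37.1 CPM, a log2 change of -0.34 (SE 0.10, adjusted p = 0.0305). The call of TYK2 was lost without the first or the third untreated library or the second of 24 h (edgeR, adjusted p from 0.0537 to 0.0982), and its change was 0.18 with the replicate block and the GC content and length offset together. That of JAK1 was lost without any 1 of the 3 untreated libraries or the first or the second of 24 h (edgeR, adjusted p from 0.0534 to 0.124). For STAT2 the log2 change in EV was 0.11 (SE 0.09, adjusted p = 0.393), not called, and the change at 24 h was larger in OE than in EV by 1.17 (SE 0.12, adjusted p = 1.13e-05). At 24 h the change in OE minus that in EV was also called for JAK1 (0.52, SE 0.14, adjusted p = 0.015), JAK2 (1.04, SE 0.29, adjusted p = 0.0162) and TYK2 (-0.55, SE 0.16, adjusted p = 0.0205). Of the 7 listed genes, 5 were called, beside 19.4% of all genes. The calls of JAK1, JAK2 and TYK2 were each lost without some single libraries. That of TYK2 was also lost with the GC content and length offset (-0.18, edgeR, adjusted p = 0.0987). Untreated, JAK1 was lower in OE, at 104 ± 13.4 CPM, a log2 difference of -2.57 (SE 0.11, adjusted p = 7.31e-15).

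Of 9 inhibitors of receptor signalling, 1 was called in OE, beside 2.31% of all genes at 12 h and 8.26% at 24 h, and DESeq2 called 1 and 2. This was USP18, which binds IFNAR2 and dampens type I signalling, and it had 84.6 ± 3.57 CPM untreated, 177 ± 17.7 at 12 h and 175 ± 4.09 at 24 h. It rose by 1.07 (SE 0.10, adjusted p = 7.27e-07) and 1.05 (SE 0.10, adjusted p = 5.44e-07) on the log2 scale. In EV it had 10.8 ± 0.860 CPM untreated and 11.1 ± 1.34 at 24 h, and the difference of the changes at 24 h was 1.02 (SE 0.15, adjusted p = 0.000293). SOCS1, a kinase inhibitor that interferons induce, had 4.18 ± 0.823 CPM untreated and 5.32 ± 1.09 at 24 h, a log2 change of 0.35 (SE 0.23, adjusted p = 0.385) that was not called. SOCS3, PTPN1, PTPN2, PTPN6, PTPN11, PIAS1 and CISH, whose products restrain cytokine receptors, kinases or STATs, were not called in OE. In EV at 24 h 1 of the 9, PTPN11, was called, beside 13.7% of all genes, with a log2 change of -0.38 (SE 0.10, adjusted p = 0.0212). This call was lost with the GC content and length offset (-0.19, adjusted p = 0.0541) and without any 1 of the 3 untreated libraries or the first or the second of 24 h (edgeR, adjusted p from 0.0502 to 0.0879).

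Of 15 tested genes known to act in the induction of interferon lambda, 4 rose in OE at 12 h, where 1.7% of all genes were called higher, and at 24 h, where 4.71% were, 4 rose and 1 fell. The 4 were the same at both times, the RNA sensors RIGI, IFIH1 and TLR3 and the transcription factor IRF1, and the 1 that fell was TRAF3, an adaptor of these sensors; RIGI, TLR3, IRF1 and TRAF3 are named after their values were seen. TLR3 lost its call at 12 h without any 1 of 4 libraries (edgeR, adjusted p from 0.0685 to 0.071), which were the second and the third of each condition, and TRAF3 lost its call without the third untreated library or the second or the third of 24 h (0.0814 to 0.131), with total counts (0.0681) and with the compared conditions alone (0.0906). IFIH1 had 125 ± 20.6 CPM untreated, 294 ± 11.5 at 12 h and 272 ± 12.8 at 24 h, a rise of 1.23 (SE 0.14, adjusted p = 9.98e-06) and 1.12 (SE 0.14, adjusted p = 2.43e-05) on the log2 scale. The adaptor MAVS, at 178 ± 20.2 CPM untreated, and the transcription factor IRF3, at 162 ± 40.3 CPM, were not called in OE.

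Of 30 interferon-stimulated genes, which type I and type III signals share, 25 rose in OE at 12 h, where 1.7% of all genes were called higher, and 26 at 24 h, where 4.71% were. None fell, and their median log2 changes were 0.93 and 1.09. OAS3, an antiviral enzyme that senses double-stranded RNA, went from 571 ± 96.3 CPM to 1204 ± 57.7 and 1174 ± 94.7, and the antiviral GTPase MX1 from 675 ± 23.7 to 1362 ± 63.8 and 1140.4 ± 20.1 CPM. BST2, which tethers virus particles, stood at 658 ± 108, 698 ± 62.8 and 665 ± 47.3 CPM and was not called. In EV, 3 of the 30 had no count, and 0 of the other 27 were called at 12 h beside 0.0436% of all genes, with 9 at an unadjusted p under 0.05 and 3 called by DESeq2, and 9 rose at 24 h, where 8.62% of all genes were called higher. Under the alternatives that kept all libraries, this count of 9 moved to between 3 and 13. The lowest, 3, came where a log2 change over 1 was required. BST2 was one of the 9, at 187 ± 6.65 CPM untreated and 268 ± 24.2 at 24 h (0.52 on the log2 scale, SE 0.13, adjusted p = 0.015). That call was lost with the GC content and length offset (0.15, adjusted p = 0.162) and without the first or the third untreated library or the first or the second of 24 h (edgeR, adjusted p from 0.0541 to 0.0787). The test of the difference of changes at 24 h called 14 of these 27 higher in OE, beside 8.16% of all genes, and 1 lower. Of the 30, 9 passed the filter through the OE libraries alone, among them the 3 with no count in EV. The count of 14 is therefore no support for a difference of the list between the lines.

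Of 16 tested genes that interferon gamma is known to activate, 9 rose at 12 h and 8 at 24 h in OE, beside 1.7% and 4.71% of all genes called higher. Of the 16, 3 passed the filter only with the treated OE libraries, so that the counts favour a rise. WARS1, a tRNA synthetase, went from 395 ± 21.6 CPM to 863 ± 37.8 and 763 ± 13.4. GBP1, a guanylate-binding GTPase, had 69.2 ± 10.9 CPM untreated, 139 ± 5.65 at 12 h and 72.8 ± 2.95 at 24 h, so that it rose at 12 h (1.01 on the log2 scale, SE 0.12, adjusted p = 1.2e-05) and was not called at 24 h (0.07, SE 0.12, adjusted p = 0.757). The adhesion molecule ICAM1, at 80.2 ± 3.07 CPM untreated, was not called. In EV at 24 h, 6 of the 16 had no count in the libraries compared and could not be called, and 0 of the other 10 were called, beside 13.7% of all genes, with 1 at an unadjusted p under 0.05 and 1 called by DESeq2.

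Among 5 tested genes of other class II cytokine receptors, the structural relatives of the interferon receptor chains, 1 rose and 1 fell in OE at 12 h, and 2 rose and 1 fell at 24 h, beside 2.31% and 8.26% of all genes called either way. F3, the tissue factor that starts coagulation, fell from 213 ± 22.4 CPM to 97.3 ± 5.21 and 153 ± 5.59, a log2 change of -1.13 (SE 0.11, adjusted p = 9.42e-07) and -0.48 (SE 0.11, adjusted p = 0.00646). IL22RA1, the interleukin 22 receptor chain that pairs with IL10RB and is named after its values were seen, rose from 1.24 ± 0.206 CPM to 3.84 ± 1.05 and 2.97 ± 0.734, by 1.62 (SE 0.28, adjusted p = 0.00141) and 1.25 (SE 0.28, adjusted p = 0.00827) on the log2 scale, the latter not called without the third library of 24 h (1.07, edgeR, adjusted p = 0.0653). IL20RB rose at 24 h, from 11.5 ± 1.23 to 23.0 ± 3.09 CPM, and IL20RA, at 3.85 ± 0.117 CPM untreated, was not called. IL10, a ligand whose receptor also uses IL10RB, had no count in 5 of the 6 conditions and at most 2 in the sixth.

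**Figure D5:**
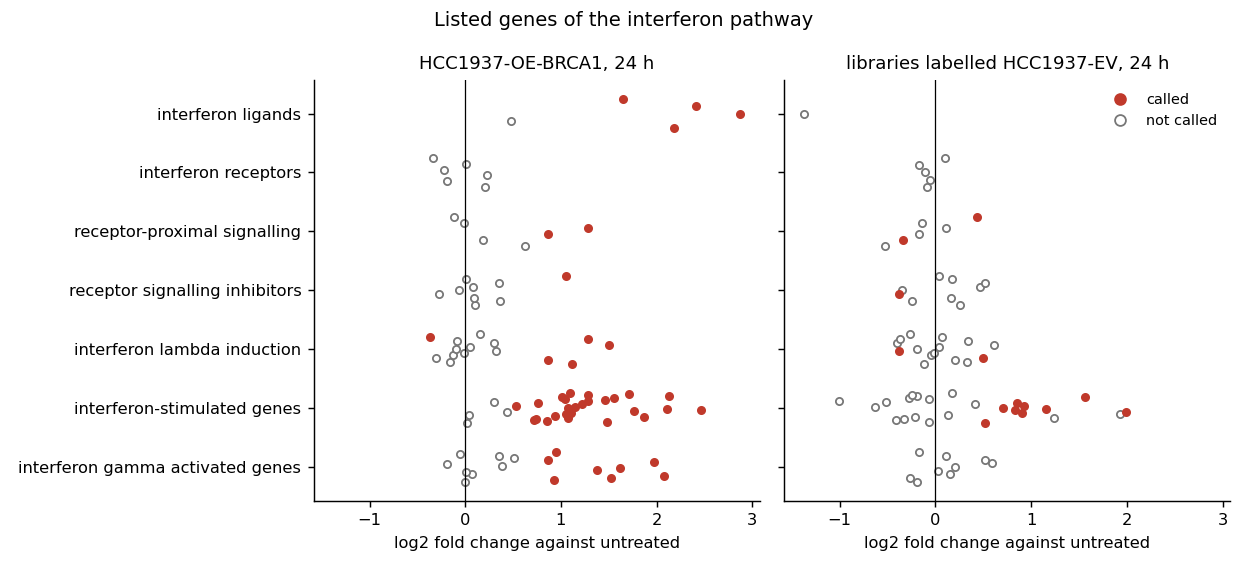
Log2 fold change at 24 h of olaparib against untreated for listed genes of the interferon pathway in OE and in EV; each point is a gene with counts in both groups compared, and filled red points are called. In OE the ligands and the interferon-stimulated genes all lie to the right of 0 and no receptor gene is called, and in EV 9 interferon-stimulated genes are called. The ligands IFNL2, IFNL3 and IFNB1 passed the filter only with the treated OE libraries, so their side of 0 is no support for a rise of the list.

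Markers of leukocytes, which can also make or answer interferon, were read beside these values. Of 9 listed leukocyte markers, 7 were in the table and 3 were tested, and their summed level in OE was between 34.05 and 48.55 CPM untreated and between 72.35 and 87.32 CPM after olaparib, against 1.153 to 2.83 CPM in EV. The most abundant in OE was CD14, a monocyte marker, which had 40.6 ± 8.39 CPM untreated, 77.7 ± 4.97 at 12 h and 77.9 ± 7.66 at 24 h and rose by 0.94 (SE 0.15, adjusted p = 0.000612) and 0.94 (SE 0.15, adjusted p = 0.000342) on the log2 scale. PTPRC, which all leukocytes carry, had between 7 and 36 counts in an OE library and 0 in EV, and FCGR3A was at 0 in OE untreated and at 12 h. CD3E and MS4A1 are not analysed here. Of 5 listed plasmacytoid dendritic cell markers, IL3RA and TCF4 were in the table and the other 3 are not analysed here. They summed to between 0.0613 and 0.614 CPM in an OE library, with TCF4 at 0 untreated and at 24 h, and to between 3.598 and 7.355 CPM in an EV library, where TCF4 had 53 to 117 counts. The study describes both lines as breast cancer cells. Whether any leukocytes were in the libraries, or had a part in the rise of IFNL1, was not tested. In bulk RNA fewer cells of a type and less RNA per cell cannot be told apart.

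The genes whose log2 CPM followed that of IFNL1 most closely over the 9 OE libraries, out of 14726 genes, were HERPUD1 (Pearson r = 0.992), EXT1 (0.991), TRANK1 (0.988), APOBEC3F (0.986) and OASL (0.986). These libraries share the step from untreated to treated, which many genes follow, and 0 of the 5 were among the 5 highest by Spearman's rho. IFNLR1 had counts in 1 EV library only, so no likeness over both lines is given for it. Over the 18 libraries, with the mean of each line subtracted, IFNAR1 was most like YIPF5 (0.933), USP14 (0.923) and C6orf62 (0.915), and IFNGR1 like NT5DC1 (0.909), EFCAB7 (0.908) and ZWILCH (0.907). For IFNGR2 the nearest was TONSL-AS1 (0.786), for IFNAR2 it was SOX21 (0.767) and for IL10RB it was PSME2P2 (0.703), the last 2 resting on few counts. Of the 3 nearest genes, 0 were among the 3 highest by Spearman's rho for IFNAR1 and IFNAR2. For IFNGR1, IFNGR2 and IL10RB, 1 was.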

How the data were processed

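Total RNA was extracted with TRIzol and libraries were made with an NEBNext Ultra II RNA kit. The authors deposited raw read counts per gene, without normalization. The submitters' processing notes name HISAT2, featureCounts, DESeq2 and GRCh38 (hg38); versions, annotation and strand setting are not given in the sources used here. The 18 tables of single libraries hold the same values as the joint table, which was used. Libraries were grouped by title. Counts were tested with edgeR 4.0.16 in R 4.3.3 (quasi-likelihood test, TMM, filterByExpr by condition, 18335 of 35044 genes kept, 1 mean per condition over 18 libraries), with Benjamini-Hochberg adjustment over all genes tested, and called at an adjusted p under 0.05. DESeq2 1.42.0 was an alternative. Single listed genes were read under the alternatives after the data were seen. Folds against 0 counts use 3 counts per condition. Gene models and exonic lengths came from GENCODE 29, which may not be the authors' annotation, and promoters from RefSeq; 33888 of the identifiers were in GENCODE 29. The test was also run on simulated counts, and the outcome is not reported here. Named were the members, genes of the ligand, signalling and inhibitor lists, the 3 most abundant genes of each other list and the genes most like each member, beside line and leukocyte markers and a few genes named after their values were seen. The members and lists were chosen with earlier results of these data known. Some listed genes are not reported here.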

Additional observations from a re-analysis of the deposited data

How the results depend on the processing

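The rise of IFNL1 in OE was called under each of the 15 alternatives that tested it, with log2 changes of 2.53 to 2.82 at 12 h and 2.73 to 3.04 at 24 h. With at least 10 counts required in every library, IFNL1, IFNLR1 and IL10RB left the tested genes by construction, and members called went from 1 to 0 in OE at 12 h and at 24 h, from 4 to 2 between the lines untreated, from 3 to 1 at 12 h and from 4 to 2 at 24 h, and from 0 to 1 in OE at 24 h against 12 h. That last comparison also had 1 member called with total counts and with DESeq2's Wald test (IFNGR1 in each) and 3 with the compared conditions alone (IFNAR1, IFNLR1 and IFNGR1). The difference of olaparib changes at 24 h had 1 (IFNGR1) with total counts and with DESeq2's Wald test, where the main count was 0. The cause of these moves was not tested.

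Leaving out 1 library at a time gave 1 to 1 members called in OE at 12 h and at 24 h, 3 to 5 between the lines untreated, 3 to 4 at 12 h, 3 to 4 at 24 h and 0 to 0 in the other comparisons. IFNGR2 lost its call between the lines untreated without EV replicate 1, and at 24 h without OE replicate 2, and both times when a log2 change over 1 was required. IFNAR1 was called between the lines untreated without OE replicate 1, and at 12 h without EV replicate 3 and with the GC content and length offset. IFNGR2 was called at 12 h with no filter on low counts. No called value changed its sign, and of the values that were not called, 25 did under at least 1 alternative.

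With the replicate number as a block, the members called stayed at 1 in OE at 12 h and 24 h, at 4, 3 and 4 between the lines and at 0 in the other comparisons. The replicate block does not rest on a known pairing: same-numbered libraries deviated with r from -0.536 to 0.655, over 0.1 in 16 of 45 pairs. Counts over the whole table moved far more, from 423 to between 125 and 1164 in OE at 12 h, from 1515 to between 302 and 3329 at 24 h, from 303 to between 45 and 3208 at 24 h against 12 h, from 8 to between 0 and 818 in EV at 12 h, from 2520 to between 346 and 5173 at 24 h and from 33 to between 6 and 217 at 24 h against 12 h. The differences of olaparib changes moved from 95 to between 37 and 772 at 12 h and from 3554 to between 1147 and 5502 at 24 h. Depth limits IL10RB, IFNAR2, IFNL2 and IFNB1, which have few counts.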
